A study of Homo sapiens with 4 samples.

Results

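Annotated cassette exons are internal exons that a transcript either keeps or skips, with both choices already recorded in the reference annotation. Here they were taken as trios of annotated splice junctions of one strand: a skipping junction, an inclusion junction that shares its start and an inclusion junction that shares its end, around an exon of under 500 nt that GENCODE lists. The skipping junction needed at least 5 uniquely mapped reads over the 4 libraries together, and the trio at least 40. This gave 7884 trios of 34508 that met the same read minimum with any junctions. They cover 7615 exons in 4178 genes, and 2310 of these genes held 1 such exon. Trios of one gene, and the 254 exons that stand in more than 1 trio, share reads and are not independent of each other.

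The libraries hold chromatin-bound RNA of K562, a leukemia cell line, from which polyadenylated and ribosomal RNA had been removed. The labels give 2 libraries the genotype WT and 2 the genotype SF3B1 K700E. One treatment text covers all 4, with doxycycline at 1 µg/ml to induce the modified allele and harvest on day 4, and 25 µM α-amanitin in the extraction buffers. The sources used here do not say if WT cells held such an allele, or if replicates were separate cultures or clones. The p-values therefore rest on the spread between libraries, part of which may be technical. The labels call K562 epithelial. Of 10 erythroid marker genes, 7 passed 1 CPM (annotated-junction reads scaled to the library total) in every library, against 4 of 10 epithelial ones, and 3 epithelial markers had no read in any library. Uniquely mapped junction reads numbered 3582592 and 3687513 in wild type, against 4304213 and 5322414 in SF3B1 K700E, so the mutant libraries were deeper.

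A cassette exon is kept when the spliceosome joins it to both neighbours. The U2 snRNP marks the branch point ahead of each acceptor, the 3′ end of an intron, and SF3B1 is the subunit of U2 that grips this region. K700E lies in its HEAT repeats and is known for use of other branch points and acceptors. Skipping or inclusion of an exon can change a protein in frame, or bring in a stop codon ahead of the last exon junction, which marks the RNA for nonsense-mediated decay. Exons of the latter kind are called poison exons. Microexons are very short exons, often in frame, that are best known from neurons.

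The sequences that the results below turn on are shown first, from GENCODE release 29 transcripts (GRCh38), 5′ to 3′. The first set are exons with an in-frame stop codon. The letters are the exon's bases that end with the first such codon of the annotated transcript, at most 30 of them, with the stop codon in capitals. They show where a transcript that keeps the exon would end its reading frame. The first 5 stand in transcripts annotated as decay targets, whereas the SF3B1 exon stands only in one annotated as protein-coding.
BRD9, 160 nt form: ttaaagttaatgctggtcagctgtgccTGA
BRD9, 150 nt form: cctgccatctatcacgtgatgctgtacTAA
TIA1: ctgaagaatggacagaattgccctggcTAA
RBM39: ctccttggaaagctctacatctccttgTGA
ATP6AP2: tatcttccaagaacacaagcctgggcgTAA
SF3B1: gcttctattctgctgctTGA

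For the short coding exons, capitals mark the exon and lower case the adjoining bases of the neighbouring exons in the spliced transcript. They are shown because cassette exons of up to 30 nt leaned to lower inclusion, and because each adds only a few codons. Of such exons, 27.9% were lower and 11.3% higher in both mutant libraries than in both wild-type ones. Over all tested trios these shares were 17.7% and 16.4%, and over all tested trios of that length 19.2% and 13.8%.
PSAP, 9 nt: atgcacatgCAGGATCAGcaacccaag
DNM1, 12 nt: gggaaccagGATGAGATTCTGgtcatccgc
GK, 18 nt: ctaatgAAAATCTCTCATAGCGTGaaagct
FLNA, 24 nt: cagTGTCAATCGGAGGTCACGGGCTAGgtg
SNX14, 27 nt: gAGGTAGCCTAAGTTTGGATGATTTTCGg
GIT1, 27 nt: gATCTCGGCAAAAGTGCATGTCTCAGAGc
ARHGAP21, 30 nt: CTACAGTTTACAAAGGATGTCACAGCACTG
NSMF, 6 nt: tatgcaagcCATCTCggtgttcag

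Inclusion was measured as PSI, the percent spliced in: the mean of the 2 inclusion junctions over that mean plus the skipping junction, from uniquely mapped reads. The exons had a median length of 106 nt (quartiles 73 and 145, range 3 to 484) and a median of 146 trio reads over the 4 libraries (quartiles 82 and 275). The median PSI over the 6724 trios with at least 10 reads in every library was 58.8% and 58.8% in wild type, against 57.1% and 58.8% in SF3B1 K700E. The difference of -0.808 points was not beyond the spread between libraries (exact permutation test, two-sided, p = 1.0, n = 2 per group). With 2 libraries a group the smallest p this test can give is 0.333. Across exons, libraries of one genotype correlated with Pearson's r of 0.949 and 0.955, and libraries of different genotype with 0.946 to 0.953. The median absolute difference in PSI was 5.22 to 5.29 points within and 5.26 to 5.56 points between genotypes. These correlations are descriptions across exons that share libraries and genes.

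**Figure D1:**
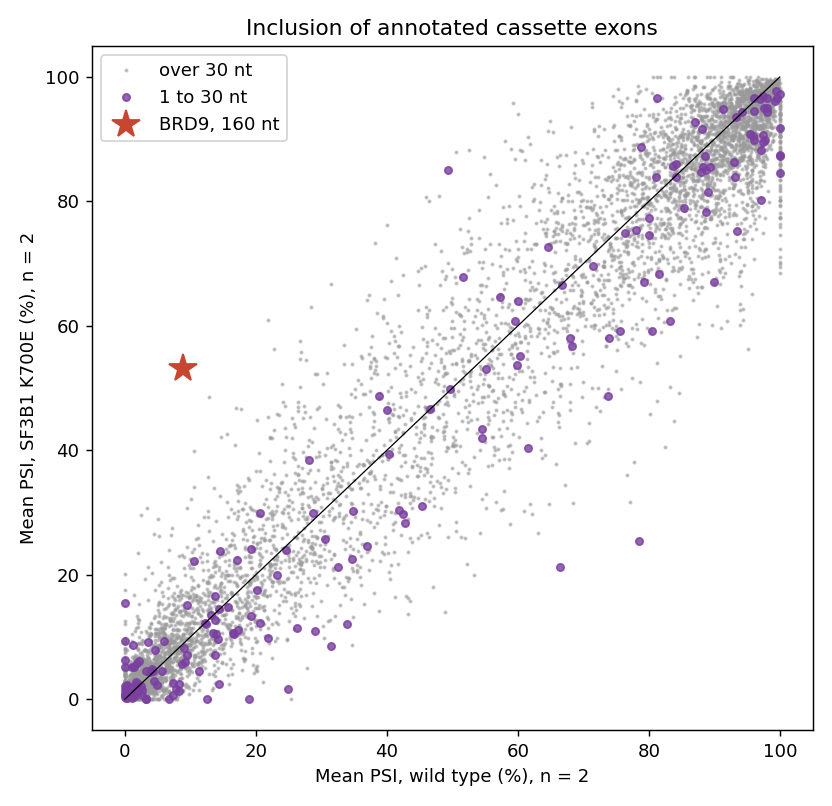
Mean PSI (%) of each annotated cassette exon with at least 10 trio reads in every library, wild type on the x axis and SF3B1 K700E on the y axis, n = 2 libraries each, with the line of equal inclusion. Points are exons, purple those of 1 to 30 nt, and the star is the BRD9 exon of 160 nt, which lies at 8.85% and 53.3%.

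One cassette exon passed the test, and it is in BRD9, a bromodomain subunit of the noncanonical BAF chromatin remodeller. The test was edgeR's quasi-likelihood test of the inclusion to skipping ratio, with Benjamini-Hochberg adjustment over all 34508 trios. Among the cassette exons 1 rose and 0 fell. Of all trios tested, 8 (0.0232%) rose and 1 (0.0029%) fell. At an unadjusted p under 0.05 there were 127 higher and 189 lower cassette exons. DESeq2 called 0 in either direction, with 49 higher and 73 lower at that unadjusted level, and limma voom called 1 higher and 0 lower. In simulated libraries, the test found 0% of exons with a log2 change of 1 in the ratio, 8% at 2, 28% at 3 and 56% at 4, with 50 exons of each size among 34508 rows. Most exons with a change of up to 3 were thus missed in libraries simulated at this depth, spread and number. These were not varied one at a time. The changes were placed only in cassette exons with more inclusion and skipping reads than the rule for members asks, at a common spread. The shares found therefore do not cover the exons with the fewest reads.

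The BRD9 poison exon has 160 nt (chromosome 5, 869245 to 869404, minus strand) and stands only in a transcript annotated as a decay target. Its PSI was 11.5% and 6.25% in wild type, against 65.5% and 41.1% in SF3B1 K700E, so both mutant libraries lay far above both wild-type ones. The mean was 8.85% ± 3.68 in wild type, against 53.3% ± 17.3 in SF3B1 K700E (SD, n = 2). Skipping reads were 58 and 60 in wild type and 10 and 33 in the mutant. The inclusion to skipping ratio rose by 3.43 on the log2 scale (standard error 0.73, edgeR adjusted p 0.016). The call was lost on leaving out any one library, with adjusted p of 0.131 and 0.937 without wild-type replicate 1 or 2 and of 1.0 and 0.28 without SF3B1 K700E replicate 1 or 2, while the direction held.

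A second BRD9 form of 150 nt (869245 to 869394) ends at the same donor and starts at an acceptor that lies farther into the exon. The trios of both forms therefore share their downstream junction and their skipping junction, and only the upstream junctions tell them apart. The upstream junction of the 160 nt form had 5 and 2 reads in wild type, against 17 and 23 in SF3B1 K700E. That of the 150 nt form had 3 and 9 reads in wild type, against 1 and 2 in SF3B1 K700E. Reads were thus more at one acceptor and fewer at the other in the mutant libraries. The PSI of the 150 nt form, which includes the shared reads, was 10.1% and 11.1% against 52.4% and 27.5% and did not pass (edgeR adjusted p 0.947). Spliced reads of the BRD9 gene as a whole were 379 and 279 CPM in wild type, against 148 and 174 CPM in SF3B1 K700E. The log2 change of -1.03 did not pass (edgeR adjusted p 0.0852).

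The next exons on the higher side are those of the smallest unadjusted p among exons whose groups do not overlap, and they did not pass the test. Of the 12 higher exons named, 8 stand in a decay transcript and in no protein-coding one, and 3 have a length that is a multiple of 3. They were chosen for their p and separation, so these counts describe the 12 only. TIA1 encodes an RNA-binding protein of stress granules that also regulates splicing. Its 66 nt exon (chromosome 2, 70225328 to 70225393) had a PSI of 6.0% and 8.33% in wild type, against 35% and 20.0% in SF3B1 K700E. The ratio differed by 2.25 on the log2 scale (standard error 0.76, edgeR adjusted p 0.947). RBM39 encodes an SR-like splicing factor, and its 72 nt poison exon (chromosome 20, 35734186 to 35734257) had the most reads of this group. Its PSI was 3.57% and 1.79% in wild type and 7.72% and 7.33% in the mutant. ATP6AP2 encodes an accessory subunit of the vacuolar proton pump. Its 83 nt exon had no inclusion read beside 30 skipping reads in wild type, which allows a PSI of up to 4.76%, and a PSI of 13.3% and 26.8% in SF3B1 K700E. Such limits are 3 inclusion reads over the group and cover counting error only.

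The remaining higher exons were under 4% in wild type, with HSPA8 as the exception. SNX6, a retromer-associated sorting nexin, had 0 inclusion reads beside 88 skipping reads in wild type over its 40 nt exon, which allows up to 1.68%, and 6.02% and 8.97% in the mutant. The mutant values rest on its downstream junction, with 5 and 12 reads, while its upstream junction had 0 and 1. USP7, the deubiquitinase of MDM2, had 0 beside 79 over a 175 nt exon, which allows up to 1.86%, and 5.88% and 10.3% in the mutant. RCOR3, a CoREST family corepressor, had 0% and 0.662% in wild type and 6.45% and 9.21% in the mutant over 76 nt. ICA1, a BAR domain protein, had 2.33% and 3.7% against 23.1% and 15.6% over 214 nt. None of these 4 passed. HSPA8, the constitutive cytosolic HSP70 chaperone, differed in kind, since its 206 nt coding exon was already mostly kept, with 88.8% and 87.2% in wild type and 96.9% and 97.7% in the mutant. PACSIN2 (139 nt) and ABCF3 (7 nt) had 0 inclusion reads in wild type, which allows up to 1.66% and 4.62%, and PSI of 7.37% and 3.4%, and of 20.8% and 10.0%, in SF3B1 K700E. In PACSIN2 the mutant values rest on the upstream junction, with 6 and 5 reads, while the downstream junction had 1 and 0.

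**Figure D2:**
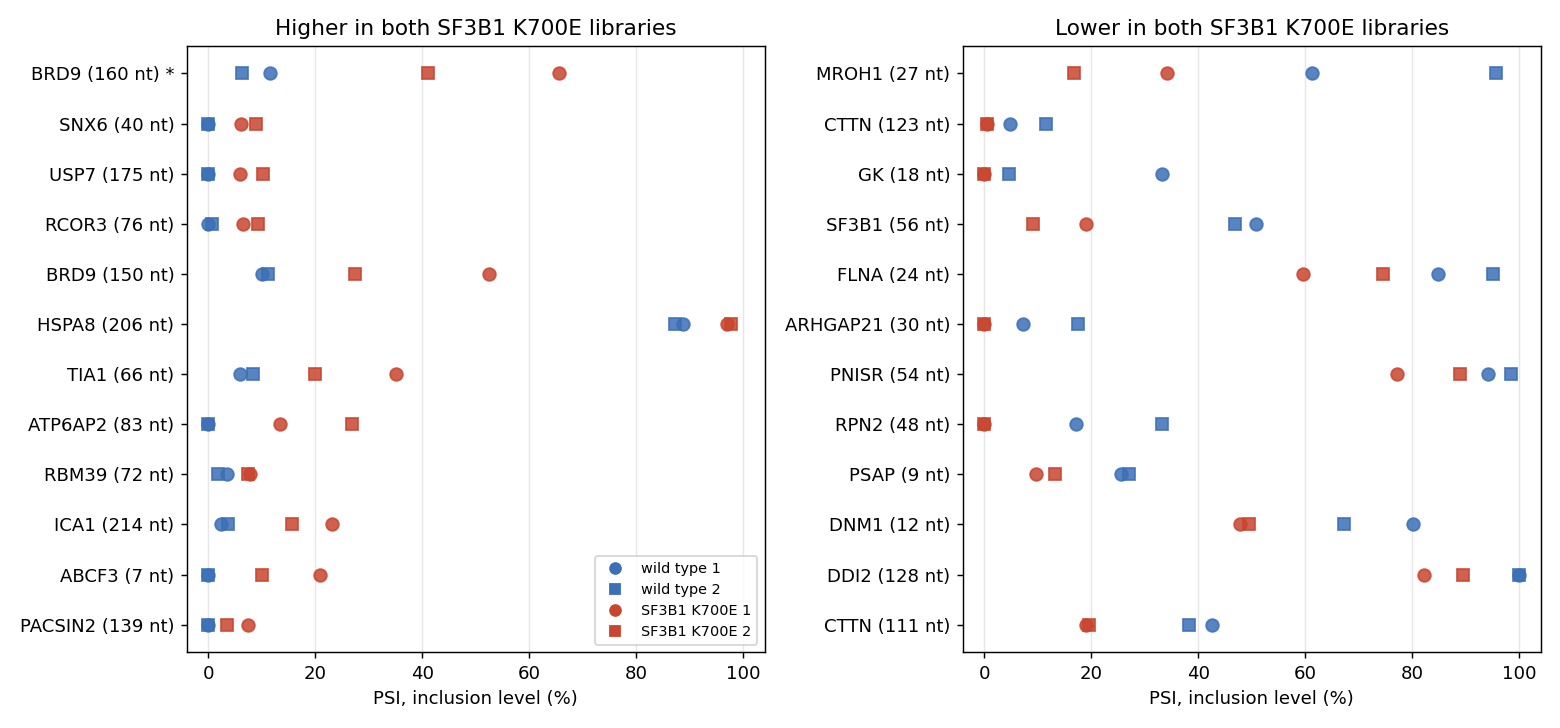
PSI (%) in each library of the 12 exons named on the higher side and the 12 on the lower side, wild type in blue and SF3B1 K700E in red, with circles and squares for replicates 1 and 2. The asterisk marks the BRD9 exon, the one that passed; the other 23 did not pass and were chosen for having groups that do not overlap.

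On the lower side 0 exons passed. Of the 12 named, which were chosen for their unadjusted p and for groups that do not overlap, 11 stand in a protein-coding transcript, 10 have a length that is a multiple of 3, and 6 are at most 30 nt long. FLNA encodes filamin A, which crosslinks actin. Its 24 nt exon (chromosome X, 154357251 to 154357274) had a PSI of 84.9% and 95.1% in wild type, against 59.6% and 74.6% in SF3B1 K700E, and the ratio differed by -2.21 on the log2 scale (standard error 0.63, edgeR adjusted p 0.805). DNM1 encodes a dynamin that cuts vesicles from the membrane. Its 12 nt exon (chromosome 9, 128239985 to 128239996) had 80.1% and 67.3% in wild type and 47.9% and 49.5% in the mutant. PSAP encodes the precursor of the saposins, which help lysosomal enzymes to degrade lipids. Its 9 nt exon (chromosome 10, 71823888 to 71823896) had 25.6% and 27% in wild type and 9.72% and 13.3% in the mutant.

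Other exons on the lower side were at or near 0 in the mutant libraries. GK, glycerol kinase, had a PSI of 33.3% and 4.55% in wild type over its 18 nt exon and no inclusion read beside 69 skipping reads in the mutant, which allows up to 2.13%. ARHGAP21, a GTPase-activating protein, had 7.32% and 17.6% over 30 nt and 0 beside 72, which allows up to 2.04%. RPN2, a subunit of the oligosaccharyltransferase, had 17.2% and 33.3% over 48 nt and 0 beside 41, which allows up to 3.53%. In GK the wild-type libraries themselves were far apart. CTTN encodes cortactin, which binds branched actin, and its 111 nt exon (chromosome 11, 70421470 to 70421580) had 42.6% and 38.3% in wild type and 19.1% and 19.6% in the mutant. A 123 nt exon of CTTN shares the same skipping junction and had 4.76% and 11.5% against 0.478% and 0.606%. Those values rest on its upstream junction, with 6 and 14 reads in wild type and 1 and 2 in the mutant. Its downstream junction had 1 and 0 reads in wild type and 0 and 0 in the mutant. Joining of this exon on both sides is thus hardly seen. PNISR, a nuclear protein with an SR-like domain, had 94.1% and 98.4% against 77.2% and 89.0% over 54 nt. DDI2, an aspartic protease, had no skipping read in wild type, which allows a PSI down to 95.7%, and 82.2% and 89.6% in the mutant over 128 nt. It met the minimum of 5 skipping reads only through the mutant libraries, with 8 and 5. MROH1 (27 nt) had 61.2% and 95.7% against 34.2% and 16.7% and the smallest adjusted p of the lower exons (edgeR adjusted p 0.231).

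The exon of SF3B1 itself among these 12 turned out to concern the intron around it as well. It has 56 nt (chromosome 2, 197418896 to 197418951, minus strand) and lies in intron 4 of the main transcript (197418589 to 197420427). Its PSI was 50.8% and 46.9% in wild type, against 19.0% and 9.09% in SF3B1 K700E, and it did not pass (edgeR adjusted p 0.527). The upstream junction of this exon had 0 and 0 reads in wild type and 4 and 3 in the mutant, and its downstream junction 31 and 23 against 19 and 17. The junction that removes intron 4 whole had 15 and 13 reads in wild type, against 49 and 100 in SF3B1 K700E. The difference in PSI therefore rests on more reads over the whole intron and on fewer over the downstream junction of the exon. By the upstream junction alone the log2 change has the other sign, 2.72. The other 23 introns of SF3B1 had median counts of 126 and 145 in wild type and 147 and 132 in the mutant. Reads over intron 4 were 11.9% and 8.97% of that median in wild type, against 33.3% and 75.8% in SF3B1 K700E. Set against introns 3 and 5 they were 11.7% and 7.47%, and 30.4% and 64.5%. Intron 4 was below every other intron of the gene in both wild-type libraries, where the lowest other counts were 45 and 70, and in SF3B1 K700E replicate 1, where it was 80. In SF3B1 K700E replicate 2 the lowest other count was 51, below intron 4. The difference of 44.1 points reached the smallest p of the exact permutation test (p = 0.333, n = 2 per group), and it was 65.3 without SF3B1 K700E replicate 1 and 22.9 without replicate 2. This intron was looked at after its values were seen, and junction reads do not show whether the rest of the RNA retained it.

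**Figure D3:**
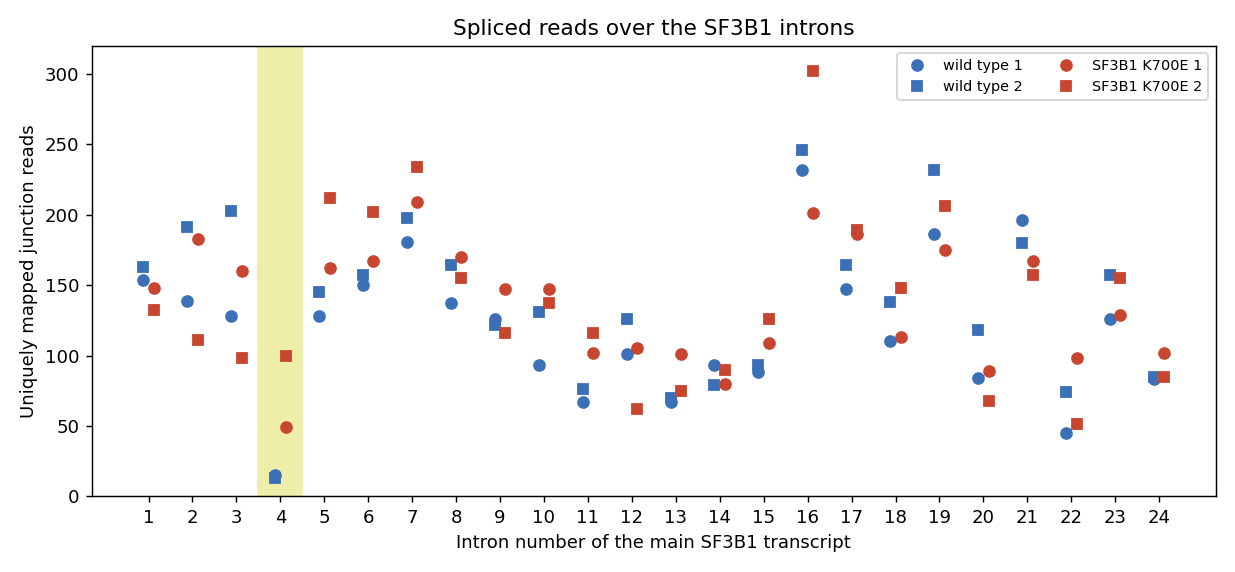
Uniquely mapped junction reads over each of the 24 introns of the main SF3B1 transcript, by intron number, in each library (wild type blue, SF3B1 K700E red, circles replicate 1 and squares replicate 2). The shaded intron 4 has 15 and 13 reads in wild type, against 49 and 100 in SF3B1 K700E.

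Since most single exons could not be called, the exons were also described by how many had both mutant libraries on one side of both wild-type libraries. Over all 34508 trios 16.4% were higher and 17.7% lower in this sense. Of the cassette exons, 1198 (15.2%) were higher and 1551 (19.7%) lower, which is near that background. The median log2 change of the inclusion to skipping ratio was -0.09. The log2 changes and their unadjusted p depend on scaling. When TMM factors were computed over all inclusion and skipping columns, the median became 0.32. Then 281 higher and 81 lower exons had an unadjusted p under 0.05, in place of 127 and 189. PSI, and so the split into 1198 and 1551 exons, needs no such factor.

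The shortest exons leaned to the lower side in this description. Of the 222 trios with exons of 1 to 30 nt, 62 (27.9%) were lower in both mutant libraries and 25 (11.3%) higher, against 19.2% and 13.8% over all 734 tested trios of that length. None was called, and 17 lower and 6 higher had an unadjusted p under 0.05. Their median PSI was 31.4% and 33.3% in wild type, against 24.4% and 23.8% in SF3B1 K700E, a difference of -8.25 points (exact permutation p = 0.333, n = 2 per group). The median of the differences of single short exons was smaller, at -2.13 points. Their mean PSI was 42.7% and 42.9% against 39.2% and 39.2%. For exons over 30 nt the mean was 52.7% and 52.9% against 51.8% and 52.4%. The difference in median PSI of the short exons rests on which of them enter. Over the 156 coding ones alone it was -0.998 points, although 47 of these (30.1%) were lower and 16 (10.3%) higher. The length class was noticed after the values were seen. Some lower short exons met the minimum of 5 skipping reads only through the mutant libraries. CXXC1, for example, had 0 and 0 such reads in wild type and 2 and 5 in the mutant. Some higher ones met it only through wild type, such as DYRK4, with 5 and 8 against 0 and 3. The shares are thus partly set by this minimum, and its part was not tested. Of the 222, 160 (72.1%) have a length that is a multiple of 3, and of the 156 coding ones 136 (87.2%).

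Beyond those named above, the lower short exons included NSMF, a synapse-to-nucleus messenger, with a PSI of 17.9% and 31.8% over 6 nt in wild type and 0% and 3.33% in the mutant. SNX14, an endoplasmic reticulum sorting nexin, had 31.8% and 36.0% against 16.5% and 7.81% over 27 nt. GIT1, an ARF GTPase-activating scaffold, had 7 and 12 inclusion reads beside 1 and 4 skipping reads over 27 nt in wild type, and 0 and 7 beside 8 and 13 in the mutant. UGGT1, the glucosyltransferase that checks glycoprotein folding, had 96.6% and 90.5% against 79.1% and 71.4% over 24 nt. It met the minimum of 5 skipping reads only through the mutant libraries, with 9 and 17 beside 1 and 2 in wild type. On the higher side MIA2, which helps load large cargo at endoplasmic reticulum exit sites, had 0% and 0% against 2.44% and 7.94% over 27 nt, and PTK2, focal adhesion kinase, had 0.813% and 1.27% against 6.35% and 4.11% over 18 nt. These 6 were chosen after their values were seen, and none passed.

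**Figure D4:**
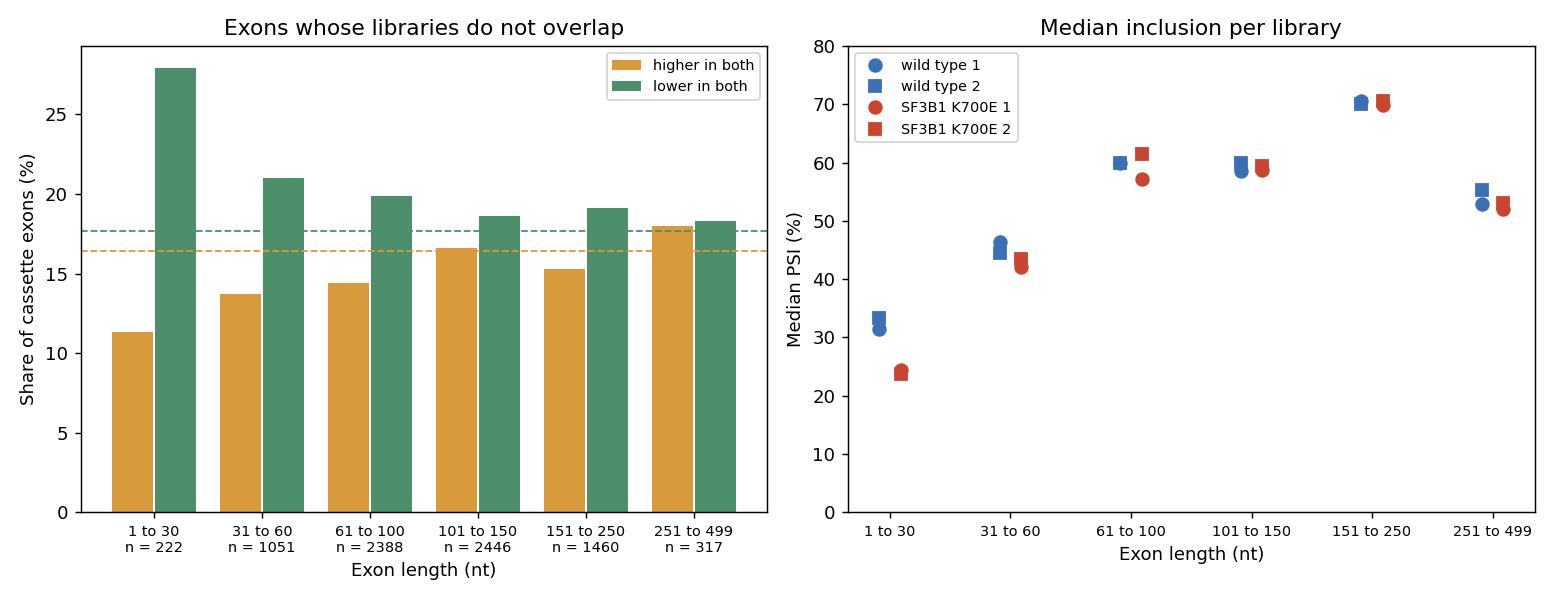
Left, share of cassette exons (%) whose PSI was higher (orange) or lower (green) in both SF3B1 K700E libraries than in both wild-type libraries, by exon length, with dashed lines at 16.4% and 17.7% for all tested trios. Right, median PSI (%) per library by exon length; at 1 to 30 nt the wild-type libraries lie at 31.4% and 33.3% and the mutant ones at 24.4% and 23.8%.

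The shares below are read against those over all tested trios, 16.4% higher and 17.7% lower, and over all cassette exons, 15.2% and 19.7%. Of the 1497 exons with a mean PSI of 90% or more, 374 (25.0%) were lower in both mutant libraries and 165 (11%) higher, and their median PSI was 96.1% and 96.2% in wild type, against 94.8% and 94.7% in SF3B1 K700E. At a mean PSI under 10% the counts were 245 lower (13.8%) and 310 higher (17.5%) of 1772. The mean PSI that forms these classes comes from the same libraries, and the depth of the mutant libraries was higher. A mostly kept exon also entered only with at least 5 skipping reads, which could come from the deeper mutant libraries alone. Of all cassette trios, 144 had no skipping read in wild type and 21 had none in SF3B1 K700E. The lean of mostly kept exons to the lower side is thus partly set by this minimum. The parts of the minimum and of depth were not tested. By place, 893 of 4050 coding exons (22%) were lower and 539 (13.3%) higher, which is near the shares over all cassette exons. Of the 1364 exons found in a decay transcript but in no protein-coding one, 225 (16.5%) were lower and 235 (17.2%) higher, and their median PSI was 9.95% and 10.7% against 11.5% and 10.7%.

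By function of the host gene, the lists held between 33 and 246 cassette exons. With each exon counted once, 15.1% of all cassette exons were higher and 19.8% lower, and over all tested trios 16.4% and 17.7%, and most lists lay near these shares. Among 179 exons of actin, myosin, microtubule and endocytosis genes, 50 (27.9%) were lower and 20 (11.2%) higher, with 0 called. CTTN and FLNA, named above for their change in these same data, are on this list, as is SNX14, picked above after its values were seen. The list also holds other short exons, lower in DNM2 and MACF1 and higher in AP1B1. Its shares thus overlap with those of the short exons. Among 246 exons of splicing factors and regulators 46 (18.7%) were lower and 45 (18.3%) higher. In HNRNPA2B1, an RNA-packaging hnRNP, the 36 nt exon that separates its A2 and B1 forms had 25.5% and 24.2% in wild type and 33.4% and 28.8% in the mutant, and did not pass. DDX5 and HNRNPA1 kept their most-read cassette exons at 99.4% or more in every library. Chromatin regulators had 43 lower (20.4%) and 31 higher (14.7%) of 211, and held the one called exon, BRD9. In SMARCC2, a BAF core subunit, the 70 nt exon had 91.9% and 92.7% against 84.8% and 86.7% and did not pass. Replication, checkpoint and repair genes had 15 lower (11.3%) and 21 higher (15.8%) of 133. RNA polymerase II and elongation genes had 20 lower (23.0%) and 18 higher (20.7%) of 87. Apoptosis, p53 and cell-cycle genes had 20 lower (24.7%) and 9 higher (11.1%) of 81, and membrane skeleton genes 7 (21.2%) and 5 (15.2%) of 33. Among textbook cassette exons 39 (23.9%) were lower and 25 (15.3%) higher of 163. In MCL1, whose 248 nt exon separates a survival-promoting form from a death-promoting one, PSI was 90.5% and 96.9% against 91.6% and 95.2%, and the groups overlapped.

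**Figure D5:**
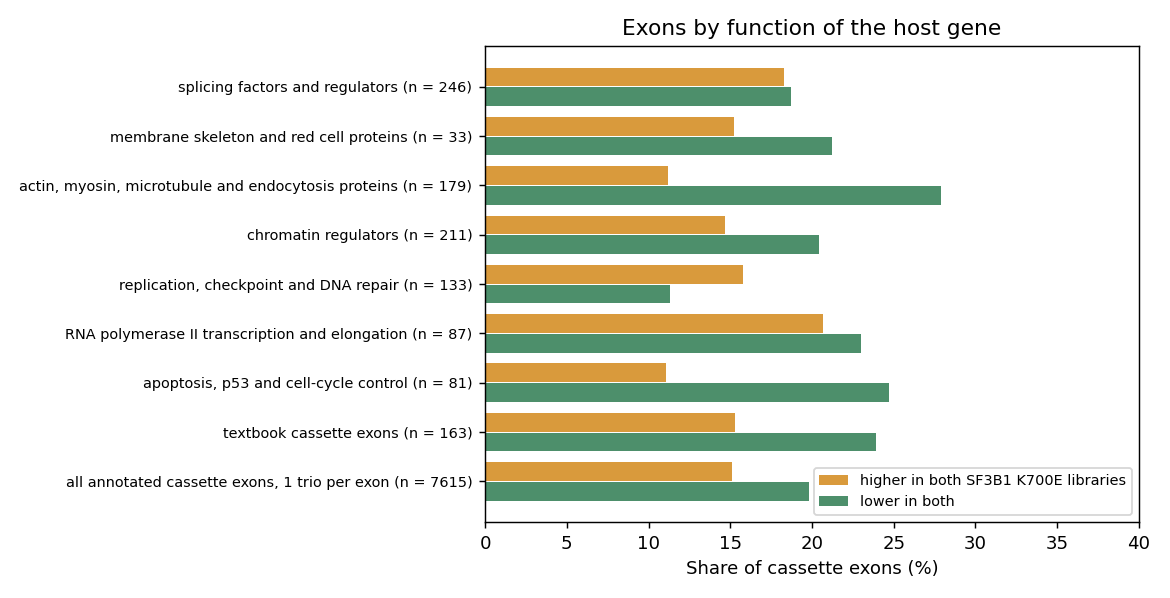
Share of cassette exons (%) higher (orange) or lower (green) in PSI in both SF3B1 K700E libraries, by function of the host gene, n exons in brackets. Actin, myosin, microtubule and endocytosis genes stand at 11.2% higher and 27.9% lower; the bars for all cassette exons stand at 15.1% and 19.8%.

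Unannotated acceptors just ahead of the cassette exons were also counted. Their reads did not enter the choice of exons, but the upstream inclusion junctions they were set against did. Such an acceptor 10 to 30 nt upstream of the exon start was seen for 231 of 7556 pairs of donor and acceptor. At these pairs, it took 2.22% and 3.58% of the reads on it and the upstream inclusion junction together, without skipping reads, in wild type (95% Wilson intervals 1.89% to 2.61% and 3.16% to 4.06%, counting error only). The shares were 4.67% and 3.69% in SF3B1 K700E (4.22% to 5.17% and 3.33% to 4.08%). The difference was 1.28 points (exact permutation p = 0.333, n = 2 per group). One locus with overlapping genes, ENSG00000242588 and ENSG00000280828, gave 386 of these reads and moved the other way. Without it the shares were 1.21% and 1.43% in wild type and 3.35% and 3.03% in the mutant, a difference of 1.87 points (exact permutation p = 0.333). This exclusion was chosen after seeing the data. With all 7556 pairs in the total the shares were 0.116% and 0.183% in wild type and 0.244% and 0.201% in the mutant (difference 0.0724 points, exact permutation p = 0.333), a total chosen after seeing the data. Of 14 sites with at least 10 such reads over the 4 libraries, 5 had each mutant share above each wild-type share. All 5 reached this minimum only with the reads of the mutant libraries, so their count is partly set by it. At 2 sites each mutant share lay below each wild-type share, namely the locus above and a site in SYCP2L. The SYCP2L acceptor, 11 nt upstream of a 46 nt exon, took 11.7% and 14.5% in wild type, against 5.62% and 4.94% in SF3B1 K700E. It had 7 and 12 reads in wild type and 5 and 4 in the mutant, so it reached the minimum only with wild-type reads. The next 3 sites were picked from the 5 after their values were seen. As for all of the 5, these 3 reached the minimum of 10 reads only with the reads of the mutant libraries. In MYB, a hematopoietic transcription factor, an acceptor 21 nt upstream of a 72 nt exon took 1.08% and 1.72% against 3.49% and 4.99%. In GTF2I, a general transcription factor gene with near-identical copies, so that its reads are uncertain, an acceptor 18 nt upstream took 0% and 1.96% against 14.5% and 10.2%. In CLNS1A, a chaperone of snRNP assembly, one 16 nt upstream took 2.38% and 0% against 7.27% and 12%. Unannotated acceptors as far downstream took 2.17% and 2.26% against 3.07% and 3.36%. Of the inclusion reads, which the choice of exons did use, the share on the upstream junction was 46.7% and 46.9% in wild type and 47.3% and 46.4% in the mutant (exact permutation p = 1.0, n = 2 per group).

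Few genes that host cassette exons passed the test on their total spliced reads. Of 4072 tested, 2 rose and 16 fell (edgeR, Benjamini-Hochberg over 10827 genes), against 36 (0.333%) and 65 (0.6%) over all genes. In bulk RNA fewer cells and less RNA per cell cannot be told apart. EPB41L3, a membrane skeleton adaptor, had 111.9 and 95.3 CPM in wild type, against 23.71 and 14.77 in SF3B1 K700E (log2 change -2.43, edgeR adjusted p 0.00498). FN1, fibronectin, had 346.0 and 643.7 against 107.7 and 110.6 CPM. ENPP3, an ectonucleotidase, had 376.2 and 413.7 against 878.2 and 844.3 CPM. PSAP is the one host of the 24 named exons whose total passed this test, with 1070 and 1100 CPM against 417 and 501 CPM (log2 change -1.24, edgeR adjusted p 0.0308). Without SF3B1 K700E replicate 2, 0 host genes rose and 0 fell.

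At the read minimum, the 450 trios with exactly 5 skipping reads had a median PSI of 94.9% in wild type and 92.2% in the mutant, and the median of their differences was -1.28 points. The 502 trios with 4 such reads, just outside, had 96.0% and 94.7%, with a median difference of -0.662 points. The 257 trios with 40 to 44 reads had 38.1% and 34.1%, with a median difference of -1.06 points. The 265 with 35 to 39 reads, just outside, had 32.2% and 26.7%, but a median difference of 0.455 points, so the sign differs across this edge.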

How the data were processed

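Per the run logs, the authors mapped trimmed pairs in 1 STAR pass (2.7.10a). The GRCh38.p12 index held 353424 GENCODE 27 junctions, and 1887 of GENCODE 22 were added. The deposited junction files hold raw counts of uniquely and multiply mapped reads per junction, without normalization, in the fixed column order of STAR. The members and gene lists were chosen with earlier results of these data known.

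Unique counts of the 4 files were joined (493028 junctions) and exons were matched to GENCODE 29. Inclusion (both junctions summed) and skipping counts entered edgeR 4.0.16 in R 4.3.3 as 2 columns per library, with library, kind and kind by genotype as terms and total unique junction reads as library size. The standard error is the absolute log2 change over the square root of F. Genes were tested on reads over annotated junctions of 1 gene (3.98% of reads fell on several), with TMM and filterByExpr. Calls used 0.05. Alternatives used DESeq2 1.42.0, limma 3.58.1 (voom) and diffSpliceDGE. Both fits were tested on simulated data with 200 changes.

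Named were called exons with separated groups, up to 12 per direction, filled with uncalled exons of the smallest p; per list, called exons and the 2 with most reads; and 3 mostly skipped exons with most reads. Those were PRAME (PSI 0.557% to 1.01%), HNRNPA2B1 and AHNAK (0.315% to 2.07%). The other list exons, in TFRC, EPB41, SEPTIN8, PICALM, CHD2, MSH5, MED15, TCEA1, MDM4 and HNRNPH1, did not pass either. Unspliced reads were not analysed here.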

Additional observations from a re-analysis of the deposited data

How the results depend on the processing

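The BRD9 exon kept its direction in all 17 alternatives (log2 change 0.91 to 4.28) but was not called in 10. The count of exons with higher inclusion was 0 with DESeq2, diffSpliceDGE, no count minimum, the second inclusion junction only and a replicate block, and 0 to 0 on leaving out each library, against 1; the count with lower inclusion was 0 throughout. The replicate numbers share only a number (correlation of deviations -0.01), so the block adds no pairing known from the design. By the first inclusion junction only, the 150 nt BRD9 exon had -0.4 and the SF3B1 exon 2.72, both with the other sign. Under that setting the 1 cassette trio called higher was not the 160 nt BRD9 one, which had an edgeR adjusted p of 0.232. Of 406 refits of the 24 exons named for their change, 394 kept direction and side of the threshold.

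The median PSI difference was -1.79 with at least 20 trio reads in every library and -1.65 to 0.032 leaving out each library. The upstream junction share difference was -0.0631 with multiply mapped reads and -0.418 to 0.51 leaving out each library. The unannotated acceptor difference was 0.599 to 1.96 leaving out each library, and 0.0724 with all pairs in the total, a larger total by construction (added after seeing the data). Added after seeing the data, the median difference of short exons was -3.23 up to 50 nt, -0.998 for coding exons, -4.94 at 20 reads in every library, -7.13 with the stricter minimum, -6.06 and -7.03 by the first or second junction, and -9.21 to -7.3 leaving out each library. Short exons higher in both numbered 102 of 804 up to 50 nt, 16 of the coding, 12 at 20 reads and 14 with the stricter minimum, and those lower 189 up to 50 nt. The SF3B1 intron 4 difference was 22.9 to 65.3.

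Host genes higher numbered 13 with DESeq2, 4 with a replicate block and 0 to 20 leaving out each library; host genes lower 51 with DESeq2 and 0 to 53. The causes were not tested. In libraries simulated at this depth, spread and number, 50 exons with a log2 change of 2, taken from the better-read cassette exons, gave 4 calls. The part of depth alone was not tested.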
